A study of Mus musculus with 12 samples.

Results

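Here 9 genes of transforming growth factor beta (TGF-beta) signalling are described: the ligands Tgfb1, Tgfb2 and Tgfb3, the signalling receptors Tgfbr1 and Tgfbr2, the pseudoreceptor Bambi, the ligand-binding membrane protein Vasn and the inhibitory Smads Smad6 and Smad7. Selection was by gene symbol in the platform's annotation and gave 19 of the 45101 probe sets on the array and 9 of its 18193 named genes. RNA was measured on 12 one-colour arrays of B16-F10, an established mouse melanoma line. The cells carried FoxD3-VP16, FoxD3 or the empty vector pMES, with 4 arrays each, which lets the effect of FoxD3 be set beside that of a form whose effector domain was exchanged. FoxD3 here is the chicken protein, a forkhead transcription factor of the neural crest, made from a chick beta-actin promoter. In FoxD3-VP16 the repression domain at the C-terminus was swapped for the VP16 activation domain of a herpes virus. Cells of every group were collected by EGFP fluorescence 24 h after the vector was given, so the cells measured are a transiently transfected fraction of 1 line.

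TGF-beta ligands are secreted in a latent form. Once active, a ligand dimer joins Tgfbr2 to Tgfbr1, which then phosphorylates receptor Smads that enter the nucleus with Smad4 and change transcription. Bambi resembles a type I receptor but has no kinase, Vasn binds TGF-beta outside the cell, and Smad6 and Smad7 are made in response to the pathway and block its receptors. In cultured melanocytes TGF-beta is known to restrain growth and pigment genes, while melanoma cells often make the ligands themselves.

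The 3 transfections left different ligand profiles. Against the empty vector, Tgfb1 rose and Bambi fell with FoxD3, Tgfb2 and Tgfb3 rose with FoxD3-VP16, and Vasn rose with both. For Tgfb3 the change for FoxD3-VP16 against FoxD3, 0.84, did not pass (log2, limma adjusted p = 0.0812), although its 4 FoxD3-VP16 arrays lay above its 4 FoxD3 arrays. Its change with FoxD3 was 0.62 (adjusted p = 0.297). Both passed once replicate number was a block in the fit. The Tgfb1 call with FoxD3 was kept in 10 of 23 alternative analyses. With FoxD3-VP16 the Tgfb3 call was kept in 11 of 23 and the Tgfb2 call in 19 of 24. Neither receptor passed in any comparison. By limma over 10916 tested genes (adjusted p under 0.05), all 9 genes were bright enough to be tested and 3 were called with FoxD3 against the empty vector, 2 up and 1 down. Of all tested genes 4.01% were called there, 2.89% up and 1.12% down. With FoxD3-VP16 against the empty vector 3 were called, all up, beside 0.595% of all genes (0.522% up, 0.0733% down). With FoxD3-VP16 against FoxD3 3 were called, 2 up and 1 down, beside 9.57% of all genes (4.44% up, 5.13% down). The first 2 comparisons share the empty-vector arrays, and the third tests the difference between the 2 effects directly. The 9 genes were chosen with earlier results of these data known. The shares of all genes are therefore background and no test of the set.

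**Figure D1:**
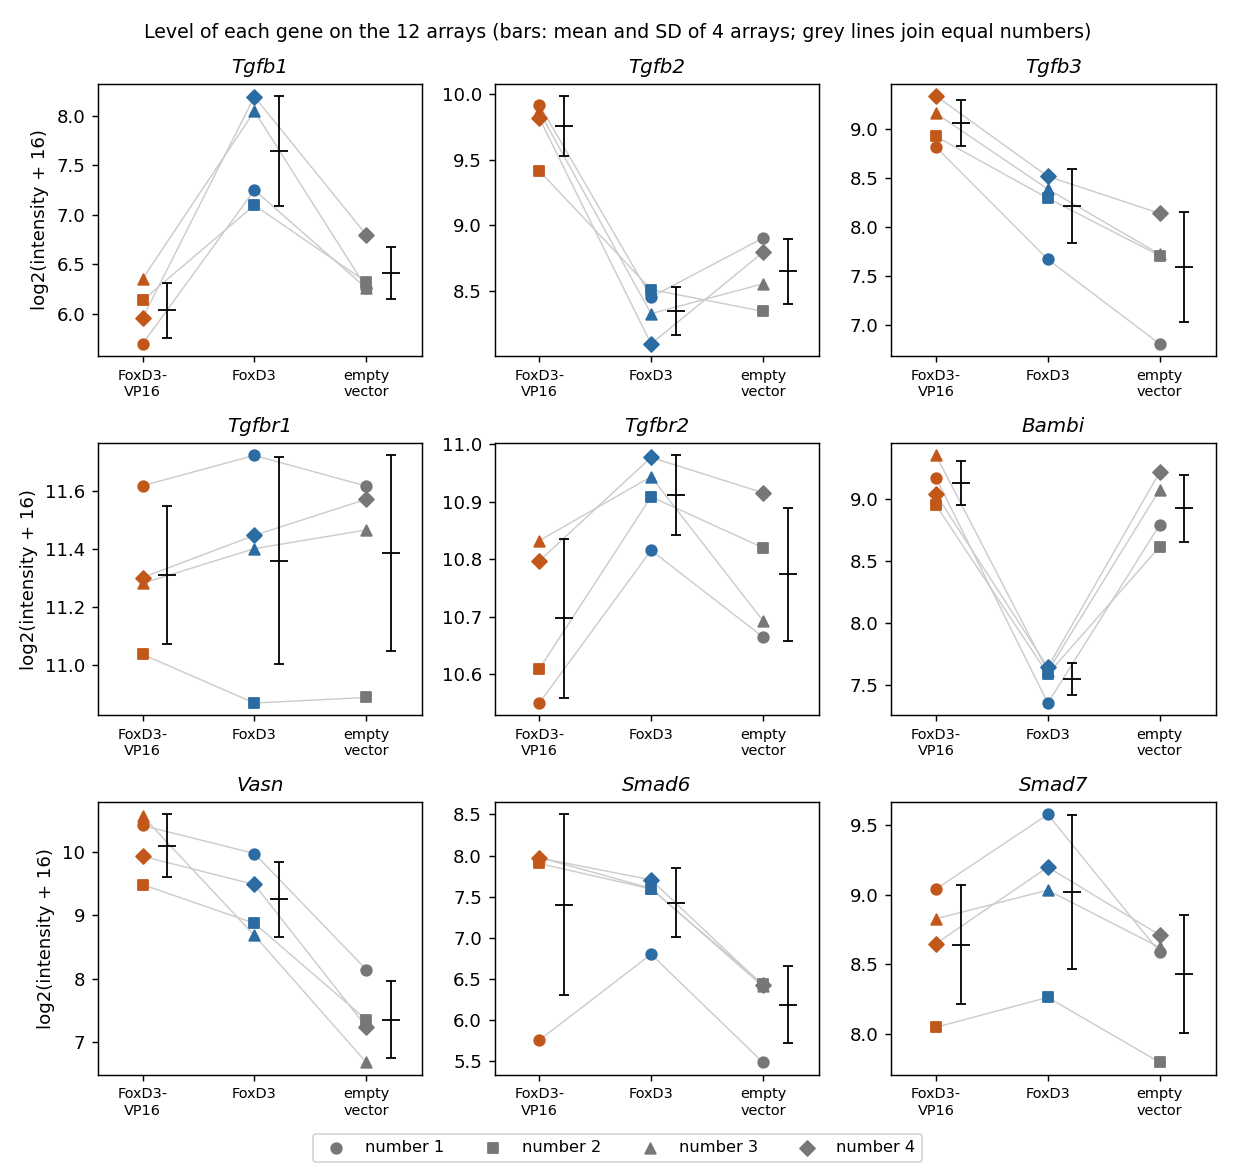
Level of each of the 9 genes as log2(intensity + 16), after quantile normalization, on the 12 arrays, with FoxD3-VP16, FoxD3 and the empty vector from left to right. Symbols mark the replicate number, grey lines join arrays of the same number, and bars give the mean and SD of 4 arrays; Bambi is lowest on the 4 FoxD3 arrays, and Vasn is lowest on the 4 empty-vector arrays.

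Replicate number held 50.1% of the variance and vector 30.8%. Probe sets at the 2 ends of Gapdh, which report on RNA integrity, differed by 0.56 to 0.77 (log2, 3' over 5') on the 3 arrays numbered 1 and by -0.25 to 0.04 on the 9 others. Since arrays with the same number deviated together, each of the 9 genes is also given with the number as a block where that changes its call, and the pathway lists with their counts under the block. Arrays numbered 3 and 4 deviated together as well. The block raised the calls to 6 of 9 genes with FoxD3 against the empty vector (21% of all genes), 4 of 9 with FoxD3-VP16 against the empty vector (11.1%) and 5 of 9 between FoxD3-VP16 and FoxD3 (32%). Of 9 melanocyte markers 8 lay above the brightness limit for testing, a log2 value of 5.98, as did 4 of 8 fibroblast, 2 of 8 leukocyte, 1 of 6 keratinocyte and 0 of 6 endothelial markers. The leukocyte marker Laptm5, with a mean of 6.55, passed only through the arrays numbered 1. It read 10.87 with FoxD3-VP16, 12.13 with FoxD3 and 10.07 with the empty vector there, and 4.26 to 6.26 on the 9 others. In bulk RNA, fewer cells expressing a gene and less of its RNA per cell cannot be told apart.

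Tgfb1, the ligand best known from immune control and fibrosis, was higher with FoxD3 than with either other vector. All levels below are log2(intensity + 16) values for replicate numbers 1 to 4 in that order. Tgfb1 read 5.69, 6.13, 6.35 and 5.95 with FoxD3-VP16, 7.25, 7.10, 8.05 and 8.19 with FoxD3 and 6.26, 6.32, 6.26 and 6.80 with the empty vector. The 4 FoxD3 arrays lay above all 8 others, while the FoxD3-VP16 and empty-vector arrays overlapped. FoxD3 averaged 7.65 ± 0.55 against 6.41 ± 0.26 with the empty vector (SD, n = 4 each), a 2.36-fold rise (log2 change 1.24, SE 0.31, limma adjusted p = 0.0395), higher in 4 of 4 pairs of equal number. This call is near the threshold. It was lost without any of 9 arrays (FoxD3 3 or 4, FoxD3-VP16 2, 3 or 4, or any empty-vector array; adjusted p = 0.0563 to 0.155), and it was kept in 10 of 23 alternatives. Over all 23 the adjusted p ran from 7.63e-05 to 0.155. FoxD3-VP16 against FoxD3 gave the larger difference, a 3.06-fold lower level (log2 change -1.61, SE 0.31, adjusted p = 0.00498), lower in 4 of 4 pairs and called in all 23 alternatives. FoxD3-VP16 against the empty vector had a log2 change of -0.38 (95% interval -1.04 to 0.29, adjusted p = 0.796) and did not pass.

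The second Tgfb1 probe set, 1445360_at, read 4.89, 5.94, 5.65 and 6.22 with FoxD3-VP16, 7.40, 6.23, 6.89 and 6.91 with FoxD3 and 6.81, 6.43, 5.18 and 6.61 with the empty vector. It gave the same order of means but a wider scatter: its differences were 0.60 for FoxD3 and -0.58 for FoxD3-VP16, each against the empty vector, and -1.18 for FoxD3-VP16 against FoxD3. None of the 3 passed in the fit over 20967 probe sets (adjusted p = 0.124 to 0.819), and the last passed with the block (adjusted p = 0.0468). In that fit the first Tgfb1 probe set missed the threshold too for FoxD3 against the empty vector (adjusted p = 0.0533). With the mean of both probe sets, Tgfb1 with FoxD3 had a log2 change of 0.92 and lost the call (adjusted p = 0.105).

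Tgfb2, a ligand of neural crest and heart development, behaved otherwise: it was higher with FoxD3-VP16. It read 9.92, 9.42, 9.87 and 9.82 with FoxD3-VP16, 8.45, 8.51, 8.33 and 8.10 with FoxD3 and 8.90, 8.35, 8.55 and 8.79 with the empty vector. Every FoxD3-VP16 array lay above every other array, and the FoxD3 and empty-vector arrays overlapped. FoxD3-VP16 averaged 9.75 ± 0.23 against 8.65 ± 0.25 with the empty vector (SD, n = 4 each), a 2.15-fold rise (log2 change 1.10, SE 0.18, adjusted p = 0.0192). Leaving out FoxD3-VP16 3 or 4 or empty vector 3 or 4 ended this call (adjusted p = 0.0559 to 0.0977). Against FoxD3 the rise was 2.65-fold (log2 change 1.41, SE 0.18, adjusted p = 0.000435) and was called in all 24 alternatives. FoxD3 against the empty vector had a log2 change of -0.30 (95% interval -0.70 to 0.09, adjusted p = 0.471) and did not pass.

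Tgfb2 has 3 further probe sets, of which 2 share a target accession with the one above, so the 4 are not independent. Their differences for FoxD3-VP16 against FoxD3 were 1.37 (1423250_a_at), 1.42 (1450923_at) and 1.62 (1438303_at), close to the 1.41 of the probe set taken, and all 3 passed in the probe-set fit (adjusted p = 0.00167 to 0.0199). Against the empty vector the same 3 had differences of 1.10, 1.01 and 0.98 with FoxD3-VP16. Of these, 1423250_a_at passed only just (adjusted p = 0.04995) and the other 2 did not (adjusted p = 0.335 and 0.329), although 1450923_at passed with the block (adjusted p = 0.00754) and in all 4 sets each FoxD3-VP16 array lay above each empty-vector array.

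Because the transfected proteins bind DNA and these ligands moved in different directions, the 250 bases before the annotated starts of Tgfb1 and Tgfb2 are shown (RefSeq, GRCm38.p6; Tgfb1 at chr7:25686752-25687001, plus strand, and Tgfb2 at chr1:186705990-186706239, minus strand, where the start used lies inside the span annotated for the gene). Capitals mark the forkhead cores TGTTTA and TGTTTG and the Smad box CAGAC, each searched on both strands.
Tgfb1: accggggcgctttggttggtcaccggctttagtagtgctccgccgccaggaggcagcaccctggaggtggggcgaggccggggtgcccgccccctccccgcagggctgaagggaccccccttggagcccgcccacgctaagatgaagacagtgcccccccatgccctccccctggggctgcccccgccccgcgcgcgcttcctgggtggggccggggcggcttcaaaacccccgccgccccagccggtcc
Tgfb2: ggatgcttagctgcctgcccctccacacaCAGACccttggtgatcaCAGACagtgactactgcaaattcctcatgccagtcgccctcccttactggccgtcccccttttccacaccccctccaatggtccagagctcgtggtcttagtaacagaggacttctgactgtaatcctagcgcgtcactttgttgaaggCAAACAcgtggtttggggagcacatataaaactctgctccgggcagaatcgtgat
The Tgfb1 window is 75.2% G and C and holds none of the 3 motifs. The Tgfb2 window is 53.6% G and C, with 1 forkhead core, read as CAAACA, starting 55 bases before the start, and 2 Smad boxes at 221 and 204 bases before it. Of 32851 promoters of the same length, 12.03% hold TGTTTA, 16% TGTTTG and 42.19% CAGAC. A match in these windows is a description and not a binding site.

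Tgfb3, a ligand of palate closure and wound healing, was ordered FoxD3-VP16 above FoxD3 above empty vector. It read 8.81, 8.92, 9.16 and 9.33 with FoxD3-VP16, 7.67, 8.29, 8.38 and 8.51 with FoxD3 and 6.80, 7.71, 7.72 and 8.14 with the empty vector. That order held within each of the 4 replicate numbers; over all arrays, FoxD3-VP16 lay above the rest, and FoxD3 and the empty vector overlapped. FoxD3-VP16 averaged 9.06 ± 0.23 against 7.59 ± 0.56 with the empty vector, a 2.76-fold rise (log2 change 1.46, SE 0.28, adjusted p = 0.0354). The call was lost without any of 10 arrays, all but FoxD3 1 and empty vector 1 (adjusted p = 0.0529 to 0.164), and it was missed in the fit over all probe sets (adjusted p = 0.0551). Without the block Tgfb3 passed neither for FoxD3-VP16 against FoxD3 (log2 change 0.84, SE 0.28, adjusted p = 0.0812) nor for FoxD3 against the empty vector (0.62, SE 0.28, adjusted p = 0.297), and with the block it passed in both (adjusted p = 0.00198 and 0.0191). Leaving out empty vector 1 alone, its lowest array, also gave the call for FoxD3-VP16 against FoxD3 (adjusted p = 0.0295).

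**Figure D2:**
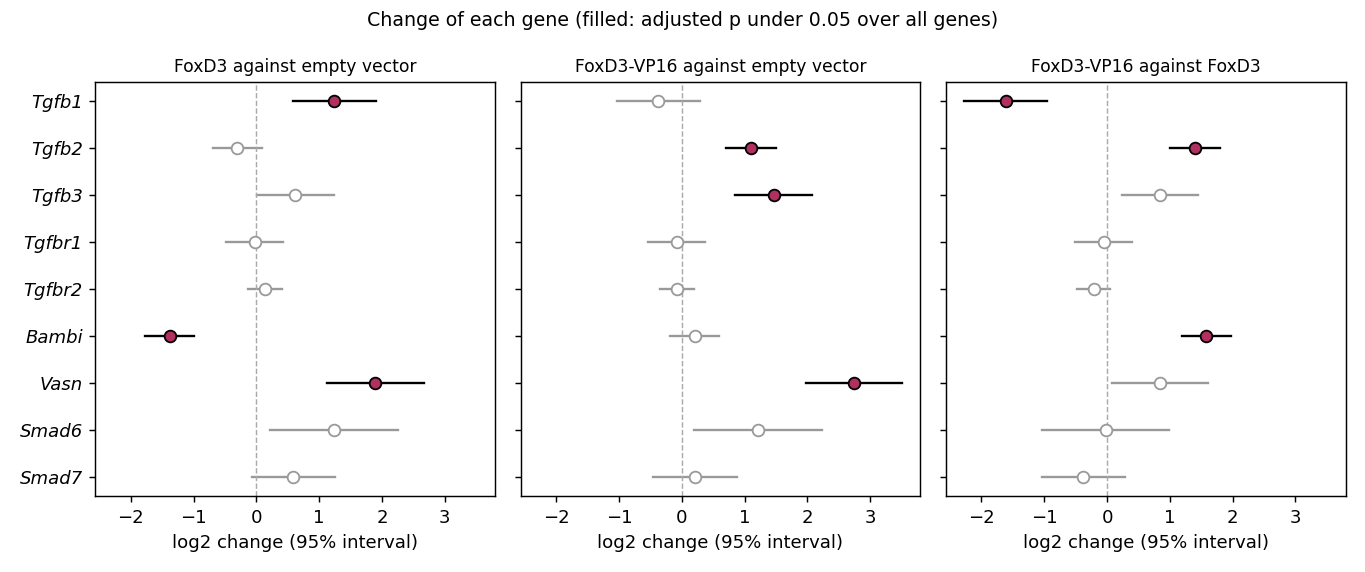
Log2 change of each of the 9 genes with its 95% interval (limma) in the 3 comparisons, filled where the adjusted p over all tested genes was under 0.05. Tgfb1 and Tgfb2 lie on opposite sides of 0 for FoxD3-VP16 against FoxD3, at -1.61 and 1.41, and both receptors lie near 0 throughout.

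The signalling receptors showed no call. Tgfbr2, which binds ligand first, read 10.55, 10.61, 10.83 and 10.80 with FoxD3-VP16, 10.82, 10.91, 10.94 and 10.98 with FoxD3 and 10.66, 10.82, 10.69 and 10.92 with the empty vector, all within a narrow band. Its log2 change was 0.14 with FoxD3 (95% interval -0.13 to 0.40) and -0.08 with FoxD3-VP16 (-0.34 to 0.19), each against the empty vector, and -0.21 for FoxD3-VP16 against FoxD3 (-0.48 to 0.05). The last was lower in 4 of 4 pairs and passed neither without the block (adjusted p = 0.335) nor with it (0.0823). Tgfbr1, the kinase that phosphorylates Smads, read 11.62, 11.04, 11.28 and 11.30 with FoxD3-VP16, 11.72, 10.87, 11.40 and 11.45 with FoxD3 and 11.62, 10.89, 11.46 and 11.57 with the empty vector. Its levels followed the replicate number, with number 2 lowest and number 1 highest in every group. The log2 changes of Tgfbr1 were -0.03 (-0.48 to 0.43) with FoxD3, -0.08 (-0.53 to 0.38) with FoxD3-VP16 and -0.05 (-0.50 to 0.40) between FoxD3-VP16 and FoxD3. Equality was not shown, since these intervals leave room for changes of that width. Of the 4 other receptor probe sets, 3 lay below the limit of 5.88 for probe sets and were not tested, and the fourth, 1420894_at of Tgfbr1, had differences of -0.28 to 0.05 with no call (adjusted p = 0.803 to 0.96). Of the dim sets, 1425444_a_at of Tgfbr2 differed from the empty vector by 0.71 with FoxD3 and 0.67 with FoxD3-VP16, higher in 4 of 4 pairs each. In the same order 1422019_at of Tgfbr2 differed by -0.08 and -0.22, and 1420893_a_at of Tgfbr1 by 0.22 and -0.21.

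Bambi, which takes the place of a type I receptor in receptor complexes and so damps TGF-beta and BMP signals, fell with FoxD3 and not with FoxD3-VP16. It read 9.17, 8.95, 9.35 and 9.04 with FoxD3-VP16, 7.35, 7.59, 7.61 and 7.64 with FoxD3 and 8.79, 8.62, 9.08 and 9.22 with the empty vector. The 4 FoxD3 arrays lay close together and below all 8 others, which overlapped. FoxD3 averaged 7.55 ± 0.13 against 8.92 ± 0.27 with the empty vector (SD, n = 4 each), a 2.59-fold lower level (log2 change -1.38, SE 0.18, adjusted p = 0.00104). FoxD3-VP16 was 2.99-fold above FoxD3 (log2 change 1.58, SE 0.18, adjusted p = 0.0002), and against the empty vector it had a log2 change of 0.20 (95% interval -0.19 to 0.59, adjusted p = 0.82). Both calls held in all 23 alternatives and with each array left out. The differences within replicate numbers were -1.44, -1.03, -1.47 and -1.57 for FoxD3 against the empty vector. Bambi has 1 probe set, so no second one bears on its value.

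Vasn, a membrane protein that can trap TGF-beta and is known from vascular smooth muscle, rose with both proteins. The probe set taken, 1455812_x_at, read 10.41, 9.48, 10.56 and 9.93 with FoxD3-VP16, 9.97, 8.87, 8.68 and 9.49 with FoxD3 and 8.15, 7.36, 6.68 and 7.24 with the empty vector. Every array of either protein lay above every empty-vector array, and the arrays of the 2 proteins overlapped. The rise was 6.68-fold with FoxD3-VP16 (log2 change 2.74, SE 0.36, adjusted p = 0.00393) and 3.72-fold with FoxD3 (1.90, SE 0.36, adjusted p = 0.00897), and both calls held in all 24 alternatives. The difference between the proteins was 0.84 (95% interval 0.08 to 1.61), higher with FoxD3-VP16 in 4 of 4 pairs; it did not pass without the block (adjusted p = 0.171) and passed with it (0.0179). Probe sets ending in _x_at can bind other transcripts, so the second one matters: 1427894_at read 9.03, 8.88, 9.31 and 9.35 with FoxD3-VP16, 8.61, 8.04, 8.27 and 8.35 with FoxD3 and 4.64, 7.51, 6.64 and 6.86 with the empty vector. Its differences were 2.73 with FoxD3-VP16 and 1.91 with FoxD3, and both passed in the probe-set fit (adjusted p = 0.0298 and 0.0482). Empty vector 1 was lowest there, at 4.64, and highest in the first probe set, at 8.15, so that the nearness of the differences in the 2 sets rests on it. Without that array (a fit added after the data were seen) the change with FoxD3-VP16 was 2.17 in the second set and 3.03 in the first, and the change with FoxD3 was 1.34 in the second and 2.19 in the first. All 4 of these passed (adjusted p = 0.00436 to 0.0174). The log2 of the summed level of the fibroblast marker list was 9.18 to 9.71 with FoxD3-VP16, 9.25 to 9.79 with FoxD3 and 8.85 to 9.34 with the empty vector. These ranges overlapped, and the bright markers of the list differed. With FoxD3-VP16, FoxD3 and the empty vector, Col1a1 averaged 6.19, 7.80 and 5.12 and Pdgfra 6.66, 7.20 and 5.99. In the same order Fap averaged 6.09, 6.23 and 6.12, and Col1a2, lowest with FoxD3, 7.90, 7.07 and 7.79. Dcn, Lum, Col3a1 and Thy1 of that list lay below the brightness limit, and its part in the Vasn values was not tested.

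The 250 bases before the start of Vasn (chr16:4639695-4639944, plus strand, GRCm38.p6, RefSeq) are shown because Vasn is the member that rose with both proteins, with the same motifs in capitals.
Vasn: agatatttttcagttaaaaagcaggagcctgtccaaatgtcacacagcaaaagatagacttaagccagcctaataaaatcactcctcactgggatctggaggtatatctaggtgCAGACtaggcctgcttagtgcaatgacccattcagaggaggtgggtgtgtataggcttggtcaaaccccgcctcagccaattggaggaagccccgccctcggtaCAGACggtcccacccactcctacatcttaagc
This window is 49.6% G and C and holds 2 Smad boxes, starting 136 and 32 bases before the start, and no forkhead core of the 2 searched. The receptors, which were not called, have windows with a Smad box too. It starts 160 bases before the start of Tgfbr2. For Tgfbr1 it starts 203 bases before a start inside the gene's annotated span (window chr4:47385966-47386215). The Tgfbr1 window before the outer start (chr4:47352972-47353221) holds none of the motifs. Of all promoters 42.19% hold CAGAC, and a match is not a binding site.

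**Figure D3:**
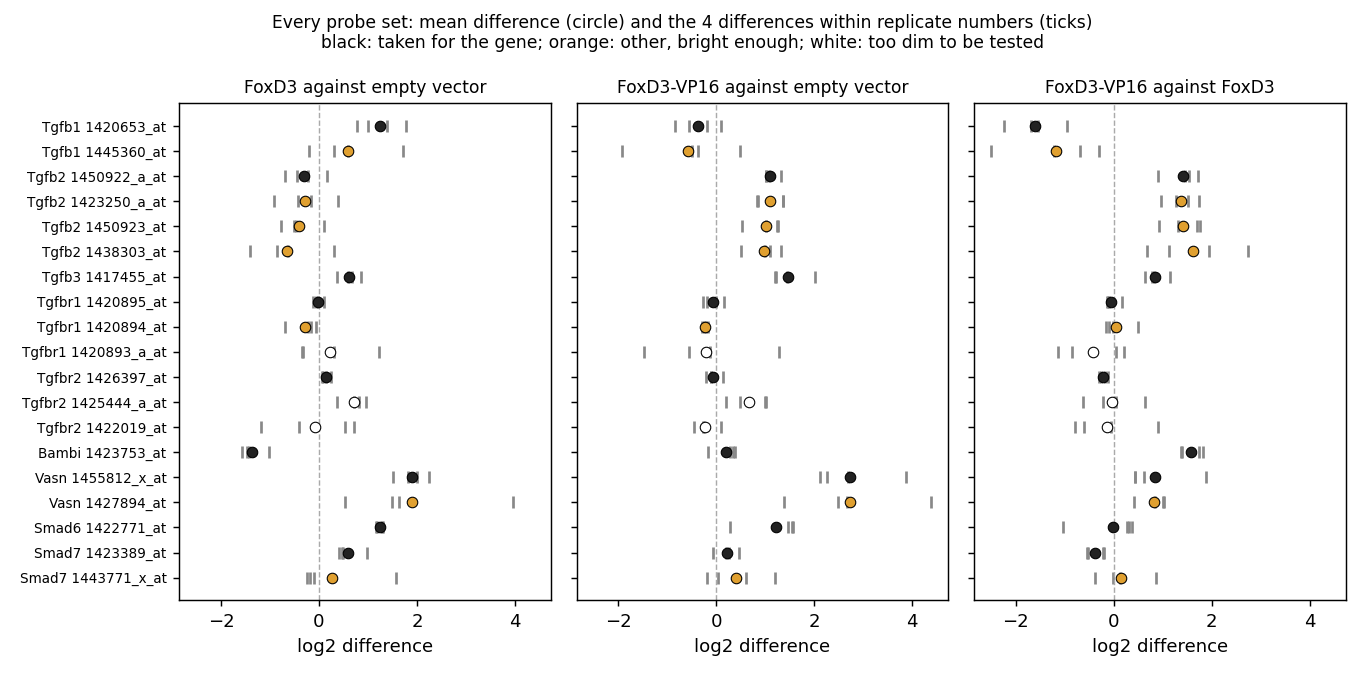
Difference between group means on the log2 scale for each of the 19 probe sets (circles) and the 4 differences within replicate numbers (ticks) in the 3 comparisons. Black circles are the probe sets taken for the gene, orange ones the others bright enough to be tested, and white ones too dim; the 4 probe sets of Tgfb2 give nearly equal differences for FoxD3-VP16 against FoxD3.

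Smad6, which blocks mainly BMP receptors, was higher with both proteins on most arrays, but the arrays numbered 1 stood apart. It read 5.76, 7.90, 7.98 and 7.97 with FoxD3-VP16, 6.80, 7.59, 7.60 and 7.70 with FoxD3 and 5.49, 6.43, 6.41 and 6.42 with the empty vector. In each group number 1 was the lowest and the other 3 lay close together. The log2 change was 1.21 with FoxD3-VP16 (SE 0.47, adjusted p = 0.367) and 1.24 with FoxD3 (SE 0.47, adjusted p = 0.194), and neither passed. Both passed once the number was a block (adjusted p = 0.0148 and 0.00652). Without the 3 arrays numbered 1 both passed too, at 1.67 with FoxD3-VP16 (adjusted p = 0.00187) and 1.33 with FoxD3 (adjusted p = 0.00181). Leaving out the single array FoxD3-VP16 1 gave adjusted p = 0.028 and 0.0241 for the same comparisons. The differences within replicate numbers were 1.31, 1.16, 1.19 and 1.28 with FoxD3, and 0.27, 1.47, 1.57 and 1.55 with FoxD3-VP16. FoxD3-VP16 against FoxD3 had a change of -0.02 (95% interval -1.04 to 0.99), whose sign turned in several alternatives. The 3 arrays numbered 1 were those with the higher Gapdh difference (0.56 to 0.77), and the part of RNA quality in the Smad6 values was not tested.

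The Smad6 promoter (chr9:64022060-64022309, minus strand, GRCm38.p6, RefSeq) is shown for the sequence at the start used, with the forkhead core in capitals. That start lies inside the span annotated for the gene, whose outer end is at 64022085.
Smad6: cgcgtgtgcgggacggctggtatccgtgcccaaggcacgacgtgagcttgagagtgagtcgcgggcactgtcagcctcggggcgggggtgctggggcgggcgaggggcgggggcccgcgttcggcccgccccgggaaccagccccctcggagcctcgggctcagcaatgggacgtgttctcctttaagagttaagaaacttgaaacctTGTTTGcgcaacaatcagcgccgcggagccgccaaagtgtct
Smad6 start: gccgccaaagtGTCTAGACtggcatatgat
The forkhead core TGTTTG starts 42 bases before the start. The second line gives the 30 bases at chr9:64022045-64022074, in which capitals mark GTCTAGAC, the palindrome known to bind Smad3 and Smad4. Of its bases 4 lie before the start used and 4 after it, so all lie inside the annotated span. Of 32851 promoter windows of 300 bases, 70 (0.213%) hold this palindrome. The match was found by searching several motifs over the windows of 6 members, so this share does not measure chance here. It is a description and not a binding site.

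Smad7, the inhibitory Smad that blocks TGF-beta receptors, read 9.04, 8.05, 8.83 and 8.65 with FoxD3-VP16, 9.57, 8.26, 9.03 and 9.20 with FoxD3 and 8.59, 7.80, 8.62 and 8.71 with the empty vector. Number 2 was lowest in every group and the groups overlapped. FoxD3 was above the empty vector in 4 of 4 pairs, with a log2 change of 0.59 (SE 0.31), which did not pass (adjusted p = 0.384) and passed with the block (0.0129). FoxD3-VP16 had a change of 0.21 against the empty vector (95% interval -0.45 to 0.88) and of -0.38 against FoxD3 (-1.04 to 0.29), neither of which passed in either fit. A second probe set of Smad7, 1443771_x_at, was high on 2 arrays numbered 1 (8.50 with FoxD3-VP16 and 8.88 with FoxD3) and had differences of 0.41 and 0.26 against the empty vector, with no call (adjusted p = 0.952 and 0.936).

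Seen across the 9 genes, arrays of the 2 groups did not overlap for 4 with FoxD3 against the empty vector (Tgfb1, Bambi, Vasn and Smad6; 11.5% of all tested genes), 3 with FoxD3-VP16 against the empty vector (Tgfb2, Tgfb3 and Vasn; 5.71%) and 4 between FoxD3-VP16 and FoxD3 (Tgfb1, Tgfb2, Tgfb3 and Bambi; 18.2%). The median change of the 9 genes was 0.59 with FoxD3 against the empty vector, 0.21 with FoxD3-VP16 against the empty vector and -0.02 between them, where all tested genes had medians of -0.0041, -0.019 and -0.027. Since the 9 genes were chosen with earlier results known, neither these medians nor the shares test the set. Of the 10 probe sets not taken for a gene, 7 were bright enough to be tested; 1 was called with FoxD3 (2.48% of all tested probe sets), 2 with FoxD3-VP16 (0.3%) and 3 between them (6.71%), all of Vasn or Tgfb2.

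The rest of the pathway was followed in 7 lists with 136 further genes, of which 75 were tested: 6 rose and 2 fell with FoxD3, 3 rose and 0 fell with FoxD3-VP16, and 10 rose and 9 fell between FoxD3-VP16 and FoxD3. These are 10.7%, 4.00% and 25.3% of the 75, beside the 4.01%, 0.595% and 9.57% of all genes given above. The lists too were chosen with earlier results of these data known, so this is no test of the pathway. With the replicate number as a block, 13 rose and 9 fell with FoxD3, 10 rose and 4 fell with FoxD3-VP16, and 22 rose and 18 fell between them, where 21%, 11.1% and 32% of all genes were called. The medians of the 75, 0.05, 0.05 and -0.02, were close to those of all genes. The counts that follow are without the block unless it is named, and each is to be read beside these shares of all genes.

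Among secreted binding proteins 4 of 17 were tested, and the 2 that changed are follistatin-like proteins. With FoxD3 1 rose (4.01% of all genes called) and with FoxD3-VP16 1 rose (0.595%), each against the empty vector. Between FoxD3-VP16 and FoxD3 1 rose and 1 fell (9.57%). The counts were the same with the block (21%, 11.1% and 32% of all genes). Fstl3, which binds activin and myostatin, averaged 5.86 ± 0.46 with FoxD3-VP16, 7.70 ± 0.45 with FoxD3 and 5.34 ± 1.03 with the empty vector (SD, n = 4 each), the last below the limit for testing, so that the size of its rise depends on the pseudocount. It rose with FoxD3 (2.36, SE 0.47, adjusted p = 0.0131) and was lower with FoxD3-VP16 than with FoxD3 (-1.83, SE 0.47, adjusted p = 0.0274). Fstl1, a secreted glycoprotein, was highest with FoxD3-VP16, at 11.16 ± 0.59 with FoxD3-VP16, 9.59 ± 0.45 with FoxD3 and 9.30 ± 0.56 with the empty vector. It rose with FoxD3-VP16 against the empty vector (1.85, SE 0.34, adjusted p = 0.0288) and against FoxD3 (1.57, SE 0.34, adjusted p = 0.0104).

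Of 13 other receptors tested, 1 rose and 1 fell with FoxD3 (4.01% of all genes called). Between FoxD3-VP16 and FoxD3 2 rose and 2 fell (9.57% of all genes). With the block the counts were 2 and 2, and 5 and 3 (21% and 32% of all genes). With FoxD3-VP16 against the empty vector 0 were called by limma with or without the block, and 0 had an unadjusted p under 0.05. The activin type I receptor Acvr1b rose with FoxD3 (0.94, SE 0.23, adjusted p = 0.0345) while Acvr1, a type I receptor for BMP and activin, fell (-0.75, SE 0.16, adjusted p = 0.0224). Both differed in the opposite direction for FoxD3-VP16 against FoxD3, with -0.85 (adjusted p = 0.0322) and 0.60 (adjusted p = 0.0359). Tgfbr3, the coreceptor that presents Tgfb2 to Tgfbr2, was lower with FoxD3-VP16 than with FoxD3 (-0.87, SE 0.24, adjusted p = 0.0365), and the BMP coreceptor Rgma was higher (1.14, SE 0.27, adjusted p = 0.0171).

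Of 12 genes of ligand latency and activation, Emilin1, a matrix glycoprotein that holds back the processing of TGF-beta precursors, rose with FoxD3 (0.70, SE 0.17, adjusted p = 0.0345), and the integrin subunit Itgb3 was higher with FoxD3-VP16 than with FoxD3 (0.82, SE 0.24, adjusted p = 0.0489). With FoxD3-VP16 against the empty vector 0 of the 12 were called by limma, 3 had an unadjusted p under 0.05, and 2 rose with the block. The block gave 2 up with FoxD3 (21% of all genes called), and 3 up and 1 down between FoxD3-VP16 and FoxD3 (32%). Among 3 other ligands tested, the inhibin subunit Inha was lower with FoxD3-VP16 than with FoxD3 (-1.10, SE 0.30, adjusted p = 0.0338). That was the only call among these 3 ligands in the 3 comparisons, with and without the block. Of 5 BMP target genes tested, 0 were called by limma without the block, while 3 had an unadjusted p under 0.05 with FoxD3, 0 with FoxD3-VP16 and 1 between them. With the block 2 rose and 1 fell with FoxD3, 1 rose with FoxD3-VP16, and 1 rose and 2 fell between FoxD3-VP16 and FoxD3.

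**Figure D4:**
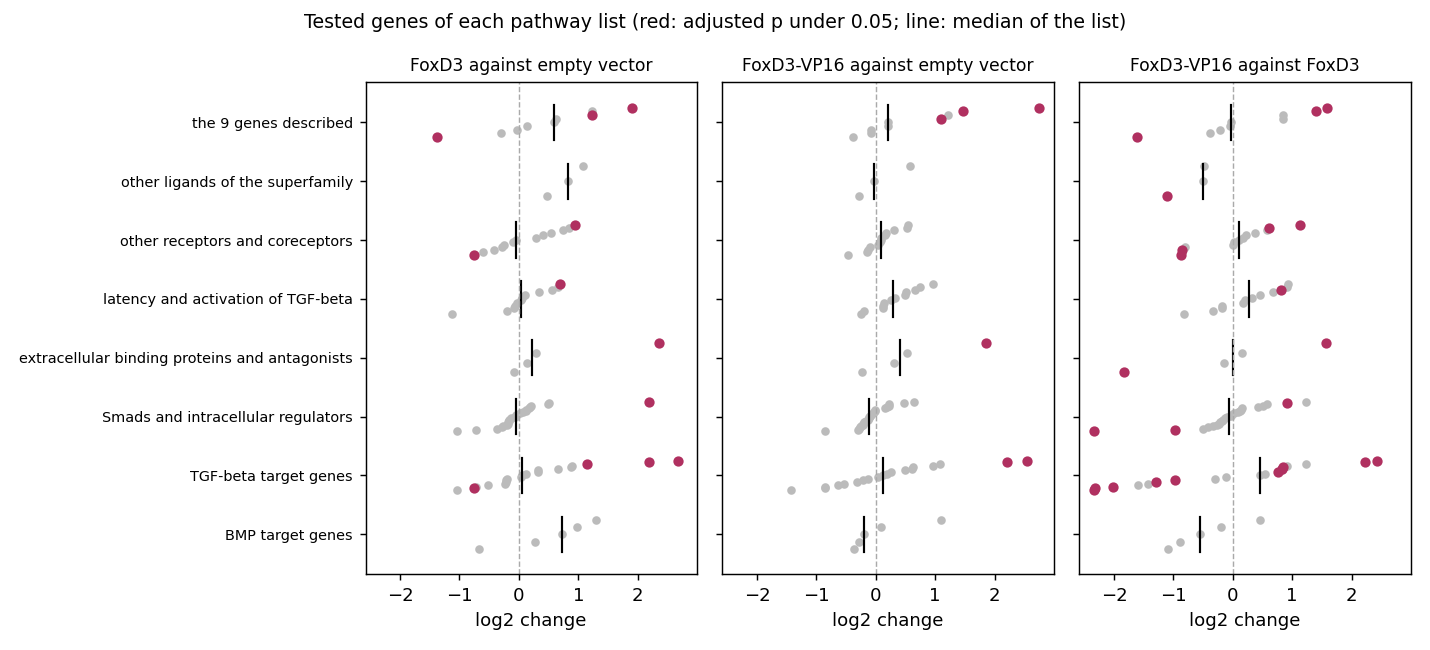
Log2 change of each tested gene in the lists, with 1 list per row and 1 comparison per panel; red points had an adjusted p under 0.05, grey points did not, and black lines are list medians. TGF-beta target genes spread widely to both sides of 0 for FoxD3-VP16 against FoxD3.

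Of 24 Smads and intracellular regulators tested, 1 rose with FoxD3 (4.01% of all genes called). Between FoxD3-VP16 and FoxD3 1 rose and 2 fell (9.57% of all genes). Without the block the list thus lay near the shares of all genes. With the block 3 rose and 4 fell, and 5 rose and 5 fell (21% and 32% of all genes). With FoxD3-VP16 against the empty vector 0 were called by limma, 2 had an unadjusted p under 0.05, and 2 rose and 1 fell with the block. The one that rose with FoxD3 was Pmepa1, a membrane protein induced by TGF-beta that sequesters receptor Smads, at 7.56 ± 0.11 with FoxD3-VP16, 9.88 ± 0.47 with FoxD3 and 7.69 ± 0.88 with the empty vector. Its change was 2.19, SE 0.37, adjusted p = 0.00461 with FoxD3 and -2.33, SE 0.37, adjusted p = 0.00156 for FoxD3-VP16 against FoxD3. Skil, a corepressor of Smads, was also lower with FoxD3-VP16 than with FoxD3 (-0.97, SE 0.27, adjusted p = 0.0415), and the endocytic adaptor Dab2 was higher (0.92, SE 0.19, adjusted p = 0.00858).

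TGF-beta target genes split between the proteins. Of 19 tested, 3 rose and 1 fell with FoxD3 (4.01% of all genes called) and 2 rose and 0 fell with FoxD3-VP16 (0.595%). Between FoxD3-VP16 and FoxD3 5 rose and 5 fell (9.57%). With the block the counts were 4 and 3, 5 and 4, and 9 and 7 (21%, 11.1% and 32%). Pmepa1 and the transcriptional repressors Bhlhe40 and Klf10 had the smallest p among those lower with FoxD3-VP16 than with FoxD3, Bhlhe40 with a change of -2.01 (adjusted p = 0.000211) and Klf10 with -2.31 (adjusted p = 0.0021). Bhlhe40 also rose with FoxD3 against the empty vector (1.15, SE 0.23, adjusted p = 0.0151), as did the collagen chain Col1a1 (2.68, adjusted p = 0.0102; its empty-vector mean lay below the limit for testing), while Snai2, an epithelial-mesenchymal transition factor, fell (-0.76, adjusted p = 0.0429). In the other direction, the matrix protein Postn was higher with FoxD3-VP16 than with FoxD3 (2.42, SE 0.27, adjusted p = 0.000187), and Postn and the matricellular Ccn2 rose with FoxD3-VP16 against the empty vector (2.21 and 2.54, adjusted p = 0.00312 and 0.0192). Of the 25 calls of single pathway genes given here, 9 held with each array left out (those of Pmepa1, Bhlhe40 and Postn in both comparisons and of Fstl1, Dab2 and Klf10 for FoxD3-VP16 against FoxD3) and 16 were lost without at least 1 array (adjusted p up to 0.241). With the mean of all probe sets of a gene, the calls of Acvr1, Acvr1b, Tgfbr3, Emilin1, Itgb3, Dab2 and Snai2 were lost. With no filter on dim genes those of Emilin1, Snai2, Inha, Tgfbr3, Itgb3 and Skil were lost, and that of Acvr1 for FoxD3-VP16 against FoxD3. With only the 8 arrays compared those of Emilin1, Snai2 and Tgfbr3 were lost, and those of Acvr1b with FoxD3 and Fstl1 with FoxD3-VP16. Single losses were Col1a1 at a pseudocount of 64, Itgb3 and Fstl3 (FoxD3-VP16 against FoxD3) at a pseudocount of 1, Snai2 without probe sets ending in _x_at, Inha on values as deposited, Skil without a trend, and Tgfbr3 and Itgb3 without the arrays numbered 1. In all, 8 of the 25 calls held in every alternative.

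The tested genes whose levels ran nearest to those of a called member over the 12 arrays were ranked by the root mean square difference of log2 values after each gene's mean was taken off. For Bambi they were Ankrd28 (0.19), Vgll3 (0.21) and Sgk3 (0.23). For Tgfb2 they were Zfp945 (0.18), Cilk1 (0.21) and Oxr1 (0.22), and for Tgfb1 5031439G07Rik (0.24), Iffo2 (0.25) and Cdc42bpg (0.25). Tgfb3 lay nearest to Prickle2 (0.31), Msrb1 (0.33) and C130075A20Rik (0.34), while for Vasn no gene came closer than Cables1 (0.73), Pdgfrb (0.77) and Klhdc8a (0.79). Each distance runs over the same 12 arrays with their shared normalization and replicate numbers, and it is a description only.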

How the data were processed

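The authors deposited linear intensity values for 45101 probe sets on 12 arrays; MAS5 is named per the submitters' processing notes, no version or genome build is stated there, and a label names dChip. Each array had been scaled to a mean of 500.003 to 500.004 once 2% of values were trimmed at either end, and no 2 columns were identical. RNA came from Trizol and was amplified to biotin-labelled antisense RNA, per the labels' protocols.

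From these values log2(intensity + 16) was computed (this scale understates the change of dim genes), quantile-normalized, and reduced to the brightest of each gene's probe sets; 64 control probe sets, 932 with several symbols and 9160 not listed were left out. Of 18193 genes the dimmest 40% were left out (below 5.98), which left 10916, fitted with limma 3.58.1 in R 4.3.3 (lmFit, eBayes with trend) over all 12 arrays with 9 residual degrees of freedom. P-values were adjusted by Benjamini-Hochberg over all genes, with 0.05 as threshold; a like fit took 20967 probe sets with 1 symbol. Every percentage of all genes called is from these fits. Plots used matplotlib 3.10.9 in Python 3.11.15.

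Replicate numbers come from the titles. In the 12 pairs of equal number, deviations from the group mean had correlations of 0.37 to 0.67 over genes, so the numbers were taken to pair the arrays; the labels do not say what they share, nor that replicates were separate cultures. P-values therefore cover the spread of these arrays alone, possibly a technical one, and precision is limited by how many arrays there are. The fit was tested on simulated data with independent noise on each array and no effect of replicate number, unlike these arrays. For FoxD3 against the empty vector it recovered 7.3% of log2 changes of 0.5, 42.2% of 1 and 87.6% of 2. False calls averaged 5.5 per run. A gene that did not pass may therefore have changed. Named pathway genes are, per list and comparison, up to 4 called genes of lowest p; a gene in 2 lists counts under both. The members and lists were chosen with earlier results of these data known. RefSeq promoters (GRCm38.p6) were matched by symbol for 6 members used here.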

Additional observations from a re-analysis of the deposited data

Results flagged for a closer look

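Among 57 groups of 4 arrays (19 probe sets in 3 groups), 11 held an array whose gap to the nearest other was past Dixon's 95% critical share of the group's range; chance alone gives about 1 in 20. Smad6 had such an array numbered 1 in every group: 5.76 with FoxD3-VP16 (the others 7.90 to 7.98), 6.80 with FoxD3 (7.59 to 7.70) and 5.49 with the empty vector (6.41 to 6.43). Number 1 was also high with FoxD3-VP16, in Tgfb2 probe set 1450923_at (10.06, the others 8.91 to 9.04) and Smad7 probe set 1443771_x_at (8.50, the others 6.76 to 6.81). With the empty vector, array 4 was high for Tgfb1 (6.80, the others 6.26 to 6.32), and array 2 was low for Smad7 (7.80, the others 8.59 to 8.71) and for Tgfbr1 probe set 1420894_at (5.99, the others 6.56 to 6.67). The remaining 3 were in probe sets too dim to be tested: Tgfbr1 1420893_a_at with empty vector 3 (4.80), and Tgfbr2 1422019_at with FoxD3-VP16 3 (4.20) and empty vector 3 (4.10).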

How the results depend on the processing

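Each member was recomputed under 24 alternatives in each comparison, which gave 636 values: 569 kept direction and side of the threshold, 30 lost a call, 19 gained one and 18 turned sign. The sign changes were all in members not called in that comparison. The calls of Bambi with FoxD3, of Vasn with both proteins, and of Tgfb1, Tgfb2 and Bambi for FoxD3-VP16 against FoxD3 held in every alternative that could test them; those of Tgfb1 with FoxD3 and of Tgfb2 and Tgfb3 with FoxD3-VP16 did not, as given in the report. With FoxD3 against the empty vector the members called went from 3 to 1 with the dimmest 60% left out (Tgfb1, Tgfb3, Bambi and Smad6 were then not tested), 6 with the replicate block and 6 with array weights. With FoxD3-VP16 against the empty vector they were 1 with only the 8 arrays compared, and between FoxD3-VP16 and FoxD3 1 with the dimmest 60% left out and 5 each with the replicate block and array weights. With 1 array left out they ranged from 2 to 4, 1 to 3 and 3 to 4.

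Over all genes, calls with FoxD3 numbered 438, and 274 with the dimmest 60% left out, 2297 with the replicate block, 4193 with array weights, 870 without the arrays numbered 1 and 197 to 555 with 1 array left out. With FoxD3-VP16 there were 65, and 1217, 3465 and 277 under the same block, weights and omission, 20 with only the 8 arrays compared, and 13 to 82 with 1 array left out. Between FoxD3-VP16 and FoxD3 there were 1045, and 3498 with the block, 4455 with weights, 1815 without the arrays numbered 1 and 602 to 1214 with 1 array left out. The sign changes were in Smad6 between FoxD3-VP16 and FoxD3 (0.036 with a pseudocount of 64, 0.11 as deposited, 0.27 with array weights, 0.34 without the arrays numbered 1, and -0.24 to 0.54 with 1 array left out), in Tgfbr1 with 1 array left out (-0.19 to 0.14 with FoxD3, -0.24 to 0.015 with FoxD3-VP16, and -0.21 to 0.069 between them), in Tgfbr2 with FoxD3-VP16 (0.12 with the mean of all probe sets) and in Smad7 with FoxD3-VP16 (-0.0034 with array weights). The causes were not tested. The share of calls that were up with FoxD3 was 72.1%, and 56.2% with the replicate block; with FoxD3-VP16 it was 87.7%, and 51.4% with the block. Dim signal kept 3 of the 19 probe sets from being tested.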
